A study of Mus musculus with 8 samples.

Results

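Loss of the polarity scaffold Scribble was examined in mouse haematopoietic stem cells sorted from bone marrow, by setting 2 RNA sequencing libraries of genotype Scribble-/- against 2 wild-type libraries. Both groups came from C57BL/6 animals that carried Mx1-Cre, a recombinase gene driven by an interferon-responsive promoter. Cre was induced in both by 6 intraperitoneal injections of polyI:C at 10 mg/kg, given on alternate days, and cells were collected 1 week later. PolyI:C is a double-stranded RNA mimic that raises interferon, and Mx1-Cre can act in any cell that responds to interferon, so deletion was not limited to stem cells. The series holds 4 genotypes with 2 libraries each, and the libraries labelled Taz-/-;Yap1-/- (Yap1 Taz null) and Scribble-/-;Taz-/-;Yap1-/- (triple null) enter only the estimate of the spread between replicates and a few values given side by side. Levels are TPM, the abundance of a gene's transcripts per length, scaled so that each library sums to 1000000. The comparison covers the 14929 gene symbols, of 33641 listed, with a level of 1 TPM or more in 2 or more of the 4 Scribble null and wild-type libraries. Of these, 12546 were protein-coding genes with a gene name, which are described first, and 1871 symbols with -ps or with Gm and digits, most of them pseudogenes or unnamed gene models, were set aside.

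Scribble works with the Dlg and Lgl proteins in a module that defines the basolateral side of epithelial cells, and polarity proteins of this kind are studied in blood stem cells for their part in asymmetric division. Scribble can also bring Hippo pathway kinases together with their substrates YAP and TAZ (TAZ is encoded by Wwtr1), co-activators that leave the nucleus when they are phosphorylated. Haematopoietic stem cells are mostly quiescent, and interferon draws them into the cell cycle for a time and raises their antigen presentation and antiviral genes.

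Of the 4 libraries, Scribble null 2 stood closer to most libraries of the other groups than to its replicate. Correlation of log2(TPM + 1) across the genes tested was 0.950 between the Scribble null libraries and 0.960 between the wild-type ones. Scribble null 2 correlated at 0.952 with wild type 2 and at up to 0.958 with a triple null library, both above the value with its own replicate. Scribble null 1 and wild type 1 each correlated at 0.918 to 0.943 with libraries of other genotypes, below the value with their own replicates. A level of 1 TPM was reached by 14608 and 14937 symbols in the Scribble null libraries, against 14024 and 14409 in the wild-type libraries. TPM hides how many reads lie behind a value, so depth is unknown here. The labels do not state whether replicates were separate animals, so the spread that the p-values measure may be technical. Nor can TPM of a sorted population separate fewer cells with a transcript from less of that transcript per cell.

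The targeted gene itself did not check the labels. Scrib (chromosome 15, 76047158 to 76069784 in GRCm38) had 6.25 and 7.63 TPM in the Scribble null libraries, against 8.19 and 9.29 TPM in the wild-type ones, and the groups did not overlap, but the difference was not called (log2 difference −0.30, standard error 0.33, adjusted p = 0.659). A gene-level TPM value does not show the loss of single exons. Yap1 Taz null libraries had 7.98 and 7.32 TPM of Scrib, and triple null libraries had 14.5 and 7.54 TPM. The first of these triple null values was the highest of the 8 libraries, although that label also names Scribble. Directions below are therefore those of the libraries labelled Scribble null. Yap1 had 5.83 and 2.45 TPM in the Scribble null libraries, against 2.00 and 2.15 TPM in the wild-type ones, and Wwtr1 had 5.32 and 3.91 TPM in the Scribble null libraries, against 0.730 and 1.19 TPM in the wild-type ones. Both Wwtr1 values lay above both wild-type values, with a log2 difference of 1.52 that did not pass (adjusted p = 0.0889).

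Across all 14929 genes, 230 (1.54%) were called, meaning that they passed an adjusted p of 0.05 in limma, with p-values adjusted by the Benjamini-Hochberg method. Of these, 108 (0.723%) were higher in Scribble null libraries and 122 (0.817%) were lower. Among named protein-coding genes, 92 were higher, with a median log2 difference of 1.18, and 77 were lower, with a median of −1.50. Log2 differences are Scribble null minus wild type on the log2(TPM + 1) scale, which shrinks differences at low levels. The groups overlapped for none of the 230 called genes. Of the genes tested, 371 passed the filter on low levels through the Scribble null libraries alone and 155 through the wild-type libraries alone. Such genes had to differ between the groups, and they make up 3 of the named protein-coding genes called higher and 8 of those called lower. For comparison, both Scribble null values lay above both wild-type values in 5032 genes, 33.7% of those tested, and below both in 2418, or 16.2%. Over all 14929 genes, 9322 log2 differences were positive and 5607 negative. The median log2 difference of all genes was 0.14, and 0.006 once each library was scaled by its median ratio to the gene means, so list medians are to be read against 0.14. This scaling moved the split of calls to 69 higher and 217 lower.

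Which genes were called depended on single libraries. Leaving out wild type 1, wild type 2 or Scribble null 1 left 13, 18 and 15 genes higher and 40, 50 and 50 lower, while leaving out Scribble null 2 left 102 higher and 146 lower. Without a Yap1 Taz null or triple null library, which then gives less to the estimate of the spread, 29 to 52 genes were higher and 63 to 79 lower. Of the named protein-coding genes, 5 higher ones (Skil, Hsph1, Egr1, Ivd and H2-T23) were called in each of the 8 fits that leave out a library. The same held for 14 lower ones, among them H2-Aa, H2-Ab1, Cd74, H2-Q2, Pf4, Ifi44l, Tgtp1, Tgtp2, Iigp1, Gbp6, Gbp2b, Ifi47 and Gdpd3. Every other named protein-coding call below was lost in at least 1 of these fits.

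**Figure D1:**
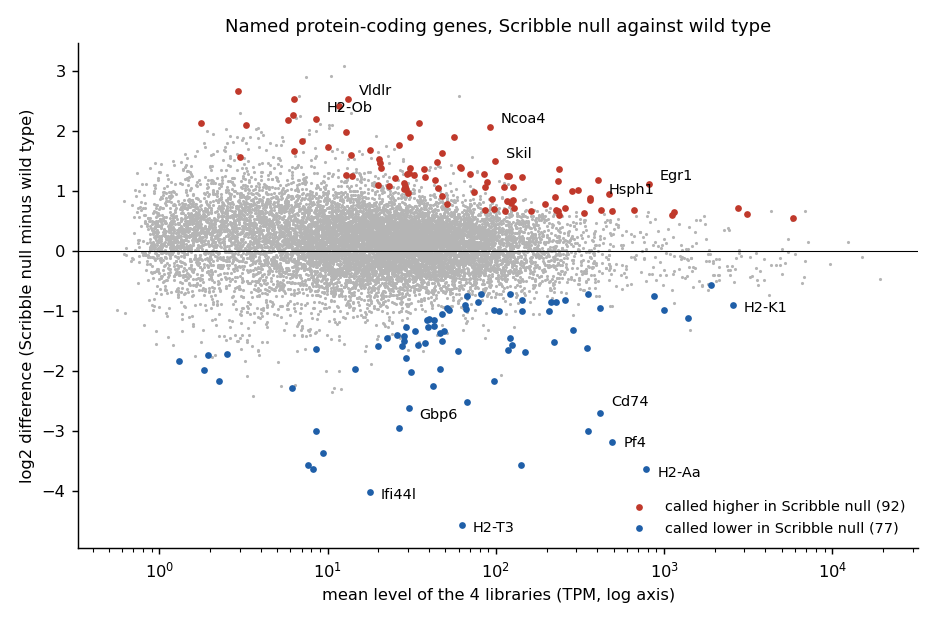
Log2 difference (Scribble null minus wild type, log2(TPM + 1) scale) of each of the 12546 named protein-coding genes against its mean level over the 4 libraries. Coloured points are the 92 genes called higher and the 77 called lower, and named points include H2-Aa at −3.64 and Skil at 1.49.

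The sharpest differences were in antigen presentation. MHC class II molecules are pairs of an alpha and a beta chain that present peptides to helper T cells, and stem cells as well as dendritic cells and B cells can carry them. H2-Aa, the alpha chain of the I-A molecule, had 127 and 105 TPM in the Scribble null libraries, against 1402 and 1507 TPM in the wild-type ones, or 116 ± 15.6 against 1454 ± 74.2 TPM (SD, n = 2 each). Its log2 difference was −3.64 (standard error 0.13, adjusted p = 1.63e-05), the smallest adjusted p among named protein-coding genes. The beta chain H2-Ab1 had 71.2 and 83.9 TPM in the Scribble null libraries, against 567 and 693 TPM in the wild-type ones (log2 difference −3.0, standard error 0.15, adjusted p = 4.81e-05). Cd74, the invariant chain that guides class II molecules to the peptide-loading compartment, had 106 and 113 TPM in the Scribble null libraries, against 674 and 768 TPM in the wild-type ones (log2 difference −2.71, standard error 0.20, adjusted p = 0.000526). All 3 genes fell in Scribble null libraries to levels far outside the spread of either group. Summed over the class II chains in the tables, the level was 209 and 209 TPM in Scribble null libraries, against 2012 and 2222 TPM in wild-type libraries.

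The rest of the class II list did not move as these 3 genes did. Of 20 genes tested, 3 were lower and 1 was higher (against 0.817% and 0.723% of all genes), and the median was −0.21. The gene that rose, H2-Ob, encodes the beta chain of H2-O, a modulator of peptide loading that acts on H2-DM. H2-Ob had 11.6 and 17.7 TPM in the Scribble null libraries, against 2.25 and 2.48 TPM in the wild-type ones (log2 difference 2.19, standard error 0.31, adjusted p = 0.0178). Its partner H2-Oa had 26.5 and 23.6 TPM in the Scribble null libraries, against 29.4 and 27.5 TPM in the wild-type ones. The third classical chain that was tested, H2-Eb1, had 9.50 and 19.2 TPM in the Scribble null libraries, against 42.9 and 21 TPM in the wild-type ones, below wild type in both libraries but with an adjusted p of 0.184. Ciita, the master co-activator of class II transcription, had 0.630 and 1.80 TPM in the Scribble null libraries, against 4.28 and 5.41 TPM in the wild-type ones, a log2 difference of −1.44 that did not pass (adjusted p = 0.095). The 8 regulators had a median of 0.05 with none called, and that sign turned under median-ratio and quantile scaling.

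MHC class I molecules present peptides made in the cytosol to killer T cells. Of 26 class I genes tested, 6 were lower and 2 higher (against 0.817% and 0.723% of all genes), and the median was −0.54. Both Scribble null values lay below both wild-type values in 19 (against 16.2% of all genes). The classical heavy chain H2-K1 had 1849 and 1725 TPM in the Scribble null libraries, against 3423 and 3214 TPM in the wild-type ones (log2 difference −0.89, standard error 0.10, adjusted p = 0.00498). The other classical heavy chain, H2-D1, had 979 and 777 TPM in the Scribble null libraries, against 1813 and 1967 TPM in the wild-type ones (log2 difference −1.11, standard error 0.13, adjusted p = 0.00717). These fell by a similar amount, while the shared light chain B2m had 5024 and 5697 TPM in the Scribble null libraries, against 7696 and 7812 TPM in the wild-type ones, with an adjusted p of 0.053. Non-classical heavy chains moved both ways. H2-T3, the thymus leukaemia antigen, had 6.02 and 2.72 TPM in the Scribble null libraries, against 139.7 and 104 TPM in the wild-type ones (log2 difference −4.57, standard error 0.45, adjusted p = 0.00244). H2-Q2 is not among the 26 class I genes counted here. It had 0.940 and 0.727 TPM in the Scribble null libraries, against 16.7 and 19.2 TPM in the wild-type ones (log2 difference −3.37, standard error 0.33, adjusted p = 0.00243), and passed the filter through the wild-type libraries alone. H2-T23, which encodes the Qa-1 heavy chain seen by inhibitory receptors of natural killer cells, rose instead, with 171 and 169 TPM in the Scribble null libraries, against 65.4 and 76.4 TPM in the wild-type ones (log2 difference 1.25, standard error 0.13, adjusted p = 0.00385). Its neighbour H2-T22 had 42.2 and 29.7 TPM in the Scribble null libraries, against 16.0 and 13.3 TPM in the wild-type ones (log2 difference 1.22, standard error 0.23, adjusted p = 0.0438).

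Peptide supply for class I pointed in the same direction in all 13 of its genes, of which 3 were called. The median was −0.61. Tap1, a subunit of the transporter that carries peptides into the endoplasmic reticulum, had 60.7 and 69.0 TPM in the Scribble null libraries, against 139.95 and 119 TPM in the wild-type ones (log2 difference −0.98, standard error 0.17, adjusted p = 0.0341). Psmb10, a catalytic subunit of the immunoproteasome, had 93.3 and 95.6 TPM in the Scribble null libraries, against 200.1 and 179 TPM in the wild-type ones (log2 difference −0.99, standard error 0.13, adjusted p = 0.0107). Psme1, a subunit of the PA28 proteasome activator, had 626 and 669.9 TPM in the Scribble null libraries, against 1149 and 1045 TPM in the wild-type ones (log2 difference −0.76, standard error 0.11, adjusted p = 0.0189). The other immunoproteasome subunits Psmb8 and Psmb9 had log2 differences of −0.71 and −0.75 that did not pass (adjusted p = 0.0575 and 0.0866). Lower class I calls numbered 0 without wild type 1, 2 without wild type 2, 3 without Scribble null 1 and 4 without either triple null library.

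Most of the H2 genes lie together on chromosome 17. Between the first and the last named H2 gene, at 33974659 to 37274484 in GRCm38, 108 named protein-coding genes were tested, of which 4 were higher and 8 lower (11.1%). The 22 H2 genes gave 9 of these calls (40.9% called). The other 86 genes of the interval gave 3 (3.49%), which were Dhx16, a helicase of pre-mRNA splicing, higher, and Tap1 and the cytokine gene Tnf, lower. On the rest of chromosome 17, 0.945% of 529 genes were called.

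**Figure D2:**
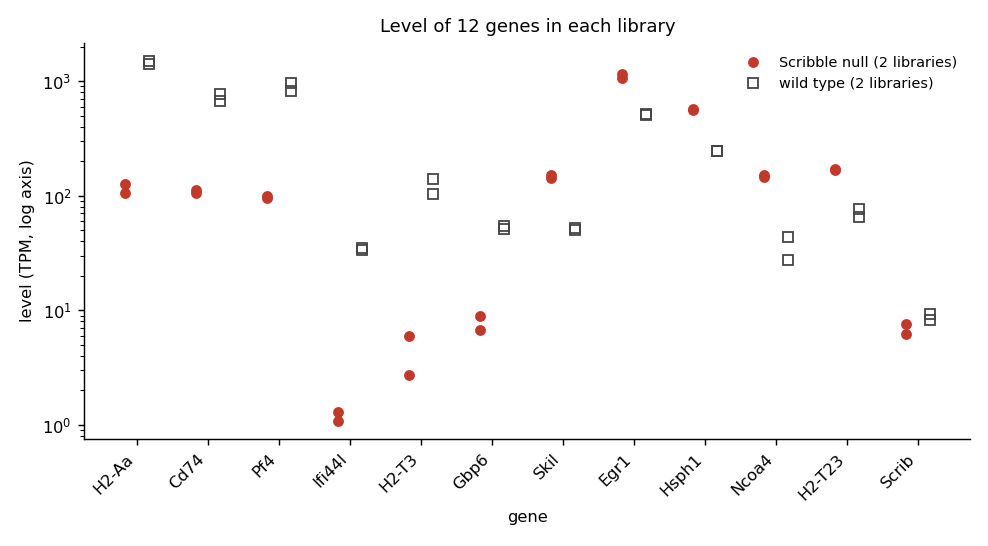
TPM on a log axis in each Scribble null library and each wild-type library for 12 genes, 1 point per library. H2-Aa, Cd74, Pf4, Ifi44l, H2-T3 and Gbp6 are lower in both Scribble null libraries, and Skil, Egr1, Hsph1, Ncoa4 and H2-T23 are higher, while Scrib differs little.

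Interferon-inducible GTPases were another lower group. The immunity-related GTPases (Igtp, Irgm2, Iigp1, Tgtp1, Tgtp2 and Ifi47 among them) and the guanylate-binding proteins (Gbp genes) are induced by interferon, interferon gamma above all, and attack vacuoles that hold intracellular parasites and bacteria. Of 19 tested, 11 were lower (against 0.817% of all genes) and none was higher, with a median log2 difference of −1.31. Both Scribble null values lay below both wild-type values in 17 of the 19 (against 16.2% of all genes). Their summed level was 629 and 682 TPM in Scribble null libraries, against 1711 and 1712 TPM in wild-type libraries. Lower calls in this group numbered 6 without wild type 1, 7 without wild type 2 or Scribble null 1 and 8 to 10 without any other library.

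Among the immunity-related GTPases, Tgtp2 had 106 and 124 TPM in the Scribble null libraries, against 333 and 324 TPM in the wild-type ones (log2 difference −1.51, standard error 0.12, adjusted p = 0.000796). Tgtp1, a near-identical copy of Tgtp2 whose reads may not be separable from it, had 68.1 and 72.1 TPM in the Scribble null libraries, against 226 and 228 TPM in the wild-type ones (log2 difference −1.68, standard error 0.15, adjusted p = 0.00132). Iigp1, which coats parasite vacuoles, had 18 and 18.7 TPM in the Scribble null libraries, against 76.7 and 73.1 TPM in the wild-type ones (log2 difference −1.97, standard error 0.17, adjusted p = 0.00104). Replicates of these 3 genes lay close together in both groups. Igtp and Irgm2 belong to the regulatory subfamily that protects the cell's own membranes. Igtp had 63.6 and 61.3 TPM in the Scribble null libraries, against 187 and 187 TPM in the wild-type ones (log2 difference −1.56, standard error 0.16, adjusted p = 0.00335), and Irgm2 had 28.5 and 32.8 TPM in the Scribble null libraries, against 66.4 and 63.0 TPM in the wild-type ones (log2 difference −1.06, standard error 0.17, adjusted p = 0.0309). Ifi47 had 147 and 182 TPM in the Scribble null libraries, against 409 and 408 TPM in the wild-type ones (log2 difference −1.31, standard error 0.13, adjusted p = 0.00308). In each of these genes both Scribble null values lay well below both wild-type values. Among guanylate-binding proteins, Gbp6 had 6.78 and 8.90 TPM in the Scribble null libraries, against 51.0 and 54.8 TPM in the wild-type ones (log2 difference −2.62, standard error 0.22, adjusted p = 0.000987), and Gbp2 had 21.9 and 26.9 TPM in the Scribble null libraries, against 73.0 and 68.8 TPM in the wild-type ones (log2 difference −1.51, standard error 0.18, adjusted p = 0.00853). Gbp4 and Gbp7 were lower too, with log2 differences of −1.58 and −0.76 (adjusted p = 0.0197 and 0.0491). Gbp2b, the gene once called Gbp1, was under 1 TPM in both Scribble null libraries, at 0.249 and 0.436 TPM, against 15.3 and 14.4 TPM in the wild-type ones (log2 difference −3.56, standard error 0.31, adjusted p = 0.00118). It passed the filter through the wild-type libraries alone, the only one of the 11 lower GTPases to do so.

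The bases before the start of called genes are shown because these genes moved together and interferon factors bind known letters. The interferon-stimulated response element (ISRE) was searched as GAAANNGAA, bound by IRF factors. The gamma-activated site (GAS) was searched as TTCNNNGAA, bound by STAT dimers. Both were searched on both strands in the 250 bases before the start in the RefSeq table of GRCm38.p6, which held a window for 9951 of the 12546 genes, 71 of the 92 called higher and 48 of the 77 called lower. ISRE letters stood in 5.63% of windows of genes called higher, 25% of those called lower and 6.4% of all. GAS letters stood in 9.86%, 14.6% and 6.17% of these sets. For both kinds, most windows of lower genes with the letters (12 with ISRE, 7 with GAS) were those of the GTPases printed below. The shares of the lower set therefore do not describe its other genes. The last 140 bases before the start of the 8 lower GTPase genes with a window read 5′ to 3′ as follows, with ISRE and GAS letters in capitals.
Igtp, chr11:58199416-58199555, plus strand: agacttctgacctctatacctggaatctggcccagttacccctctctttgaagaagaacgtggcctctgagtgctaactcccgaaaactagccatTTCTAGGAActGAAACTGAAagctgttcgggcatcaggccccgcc
Irgm2, chr11:58214837-58214976, plus strand: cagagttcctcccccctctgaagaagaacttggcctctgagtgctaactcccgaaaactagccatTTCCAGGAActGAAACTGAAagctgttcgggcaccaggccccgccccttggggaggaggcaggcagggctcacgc
Tgtp1, chr11:48992247-48992386, minus strand: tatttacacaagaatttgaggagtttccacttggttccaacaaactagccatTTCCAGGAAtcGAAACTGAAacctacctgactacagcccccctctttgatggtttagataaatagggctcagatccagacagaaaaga
Tgtp2, chr11:49064213-49064352, minus strand: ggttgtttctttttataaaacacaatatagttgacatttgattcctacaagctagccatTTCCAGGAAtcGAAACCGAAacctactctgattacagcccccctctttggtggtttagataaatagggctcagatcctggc
Gbp2, chr3:142620523-142620662, plus strand: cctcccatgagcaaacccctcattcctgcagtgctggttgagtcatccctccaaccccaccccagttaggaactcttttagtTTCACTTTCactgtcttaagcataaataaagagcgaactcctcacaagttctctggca
Gbp2b, chr3:142594707-142594846, plus strand: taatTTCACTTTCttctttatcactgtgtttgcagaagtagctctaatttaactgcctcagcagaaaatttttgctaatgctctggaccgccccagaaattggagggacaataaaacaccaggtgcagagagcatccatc
Gbp7, chr3:142530196-142530335, plus strand: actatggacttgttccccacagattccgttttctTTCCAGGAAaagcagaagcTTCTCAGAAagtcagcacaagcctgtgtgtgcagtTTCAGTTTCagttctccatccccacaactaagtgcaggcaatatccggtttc
Ifi47, chr11:49076447-49076586, plus strand: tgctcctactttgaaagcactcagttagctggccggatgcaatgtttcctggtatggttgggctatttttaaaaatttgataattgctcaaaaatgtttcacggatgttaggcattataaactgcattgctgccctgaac
In Igtp, Irgm2, Tgtp1 and Tgtp2 a GAS was followed after 2 bases by an ISRE, an arrangement noticed in these sequences and then counted in all windows. It occurred in 4 of 9951 windows (0.0402%), those of these same 4 genes. The genes with this arrangement are family members with similar promoters and not independent cases. The windows of Irgm2 and Tgtp1 lie inside the GENCODE M21 spans of these genes (58199618 to 58222782 and 48985327 to 48994172). They precede a RefSeq start that is not the outermost GENCODE one. Gbp2, Gbp2b and Gbp7 held ISRE letters, Gbp7 also 2 GAS, and Ifi47 held neither in this window.

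Of the 20 class II genes tested 16 have a window, and of those called H2-Aa, which fell, and H2-Ob, which rose, are shown. Capitals mark the CCAAT box (CCAAT on either strand, in 36.6% of all windows) and cyclic AMP response element letters (TGACGTCA, in 2.71%). In class II promoters these letters correspond to the Y box bound by NF-Y and the X2 box bound by CREB, with RFX bound at the neighbouring X1 box.
H2-Aa, chr17:34287824-34287963, minus strand: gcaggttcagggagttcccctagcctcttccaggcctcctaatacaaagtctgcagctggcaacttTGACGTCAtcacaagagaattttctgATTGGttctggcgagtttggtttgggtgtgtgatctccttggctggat
H2-Ob, chr17:34238765-34238904, plus strand: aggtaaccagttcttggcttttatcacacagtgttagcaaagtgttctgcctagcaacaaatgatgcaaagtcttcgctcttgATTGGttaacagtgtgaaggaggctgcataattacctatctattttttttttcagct
In H2-Aa the TGACGTCA letters stood 74 to 67 bases before the start and the CCAAT box 48 to 44 bases before it. H2-Ob held a CCAAT box 57 to 53 bases before the start and no TGACGTCA. Only these exact letters were searched, so an X2 box with other letters would be missed. The windows of the other class II genes were not compared, and the part of these letters in the differences was not tested.

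The remainder of the interferon response did not follow the GTPases as a group. Of all 72 interferon genes tested, 13 were lower and 1 higher (against 0.817% and 0.723% of all genes). Of 17 sensors and transcription factors 1 was lower and none higher. Their median was 0.02, a sign that turned under median-ratio and quantile scaling. Irf1 and Irf9 had log2 differences of −0.35 and −0.59 that did not pass (adjusted p = 0.236 and 0.195). The 36 antiviral effectors had a median of −0.11, with 1 called each way. Zbp1, a sensor of left-handed nucleic acids, had 12.1 and 14.2 TPM in the Scribble null libraries, against 52.4 and 32.3 TPM in the wild-type ones (log2 difference −1.58, standard error 0.29, adjusted p = 0.0412). Ifitm1, a membrane protein that blocks virus entry, rose, with 1278 and 1416 TPM in the Scribble null libraries, against 928 and 847 TPM in the wild-type ones (log2 difference 0.60, standard error 0.11, adjusted p = 0.0437), while its relative Ifitm3 had 1684 and 1718 TPM in the Scribble null libraries, against 2411 and 2069.6 TPM in the wild-type ones (adjusted p = 0.109). Outside the list, Ifi44l, a gene induced by type I interferon, had 1.29 and 1.09 TPM in the Scribble null libraries, against 35.2 and 33.4 TPM in the wild-type ones (log2 difference −4.01, standard error 0.23, adjusted p = 0.000101). Cxcl9, a chemokine induced by interferon gamma, had 1.61 and 0.731 TPM in the Scribble null libraries, against 16.9 and 15 TPM in the wild-type ones (log2 difference −2.99, standard error 0.37, adjusted p = 0.00942).

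The other deletion genotypes share the wild-type libraries with this comparison, so their values are given only side by side. H2-Aa was at 127 and 105 TPM in Scribble null, 234 and 258 TPM in Yap1 Taz null and 309.7 and 304 TPM in triple null libraries. H2-T3 was at 6.02 and 2.72 TPM in Scribble null, 2.91 and 6.60 TPM in Yap1 Taz null and 2.97 and 5.46 TPM in triple null libraries, all well below the wild-type values. Gbp2b was likewise under 1 TPM in all 6, at 0.353 and 0.209 TPM in Yap1 Taz null and 0.448 and 0.266 TPM in triple null libraries. H2-K1 was at 1904 and 1820 TPM in Yap1 Taz null and 1876 and 1989 TPM in triple null libraries. H2-D1 was at 867 and 806 TPM in Yap1 Taz null and 871 and 816 TPM in triple null libraries. Igtp was at 53.9 and 72.7 TPM in Yap1 Taz null and 76.2 and 75.5 TPM in triple null libraries. H2-Ab1 was at 139 and 159 TPM in Yap1 Taz null and 155 and 166 TPM in triple null libraries. Cd74 was at 105 and 168 TPM in Yap1 Taz null and 284 and 289 TPM in triple null libraries. The lower levels of H2-Aa, H2-Ab1, Cd74, H2-T3, Gbp2b, H2-K1, H2-D1 and Igtp were therefore not particular to Scribble null libraries. H2-Aa and H2-Ab1 were lowest in Scribble null libraries. Levels of some other genes differed among the deletion genotypes. Ifi44l was at 25.7 and 26.5 TPM in Yap1 Taz null and 8.51 and 7.39 TPM in triple null libraries, and Cxcl9 was at 13.9 and 11.3 TPM in Yap1 Taz null and 12.5 and 6.26 TPM in triple null libraries. Gdpd3, a lysophospholipase D, had 22.8 and 16.4 TPM in the Scribble null libraries, against 117 and 115 TPM in the wild-type ones (log2 difference −2.52, standard error 0.25, adjusted p = 0.00244), and stood at 94.0 and 152 TPM in Yap1 Taz null and 108 and 127 TPM in triple null libraries. H2-T23 was at 185 and 180.3 TPM in Yap1 Taz null and 195 and 223 TPM in triple null libraries. H2-Ob was at 9.04 and 11.2 TPM in Yap1 Taz null and 9.05 and 12.2 TPM in triple null libraries. Both genes were above wild type in every deletion library. Where other genotypes are not given for a gene, its difference from wild type may be shared with them.

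**Figure D3:**
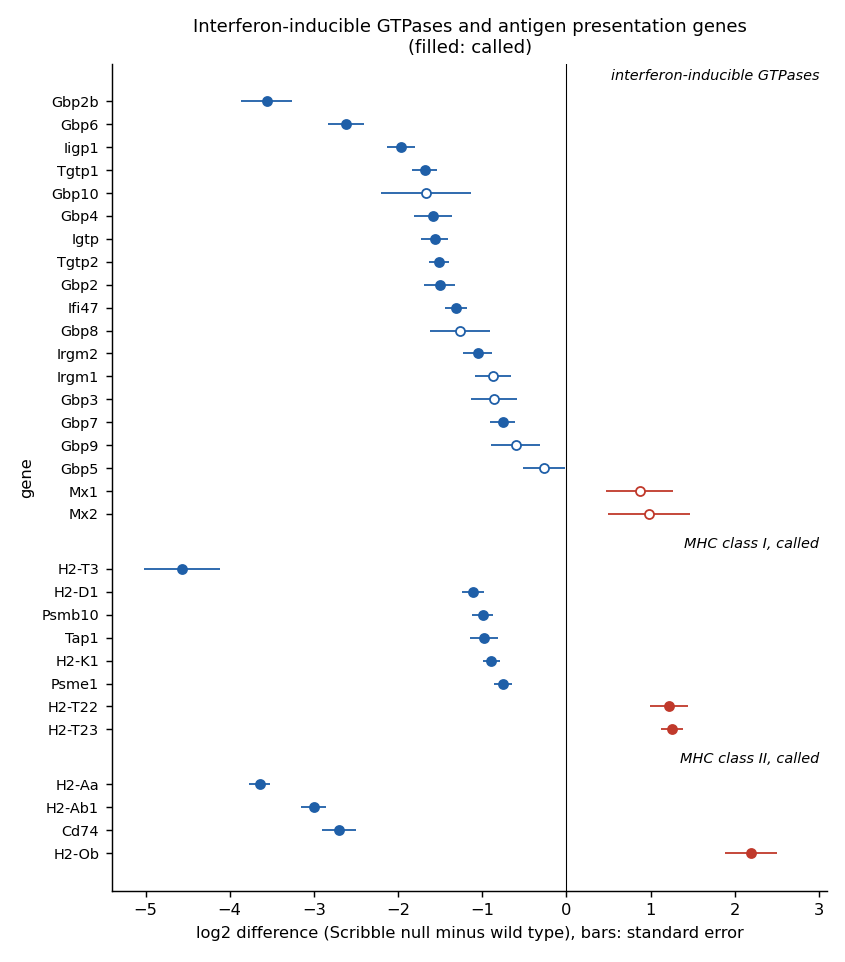
Log2 difference (Scribble null minus wild type) with its standard error for the 19 interferon-inducible GTPases, the class I and the class II genes called, filled where called. The GTPases span −3.56 to 0.98, and H2-Ob, H2-T22 and H2-T23 lie to the right of 0.

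Proliferation genes leaned to the lower side in Scribble null libraries, mostly without being called. Of 123 cell cycle genes tested, 9 were lower (against 0.817% of all genes) and none higher. Log2 differences were negative for 112 of the 123, with a median of −0.47, against 0.14 over all genes, and both Scribble null values lay below both wild-type values for 84 (against 16.2% of all genes). Of the calls, 5 were DNA replication genes. Gins1 and Gins2, subunits of the GINS complex that holds the replicative helicase together, were both called. Gins1 had 7.65 and 17.3 TPM in the Scribble null libraries, against 53.9 and 46.9 TPM in the wild-type ones (log2 difference −2.03, standard error 0.32, adjusted p = 0.0305), and its Scribble null replicates lay further apart than its wild-type ones. Gins2 had 52.6 and 58.1 TPM in the Scribble null libraries, against 95.0 and 108 TPM in the wild-type ones (log2 difference −0.86, standard error 0.14, adjusted p = 0.0305). Mcm3 and Mcm5, subunits of the helicase ring itself, had log2 differences of −0.85 and −0.98 (adjusted p = 0.0384 and 0.0388). Rrm2, the S-phase subunit of ribonucleotide reductase, had 21 and 28.5 TPM in the Scribble null libraries, against 52.9 and 57.3 TPM in the wild-type ones (log2 difference −1.14, standard error 0.19, adjusted p = 0.036). In G1/S control, the D-type cyclin Ccnd1 had 17.5 and 15.9 TPM in the Scribble null libraries, against 35.9 and 47.8 TPM in the wild-type ones (log2 difference −1.26, standard error 0.22, adjusted p = 0.035), and the Cdk-binding protein Cks1b had 63.5 and 75.1 TPM in the Scribble null libraries, against 149 and 131 TPM in the wild-type ones (log2 difference −1.0, standard error 0.16, adjusted p = 0.0317). In mitosis, the spindle checkpoint kinase Ttk had 11.9 and 11 TPM in the Scribble null libraries, against 36.2 and 30.3 TPM in the wild-type ones (log2 difference −1.45, standard error 0.24, adjusted p = 0.0323), and Cdca8, a subunit of the chromosomal passenger complex, had 40.5 and 50.9 TPM in the Scribble null libraries, against 87.7 and 84.0 TPM in the wild-type ones (log2 difference −0.90, standard error 0.16, adjusted p = 0.0405). The proliferation marker Mki67 had 77.8 and 92.4 TPM in the Scribble null libraries, against 139 and 133 TPM in the wild-type ones and did not pass (adjusted p = 0.0716). These calls depended on single libraries, since their count was 0 without wild type 1, wild type 2, Scribble null 1 or either triple null library, 1 without either Yap1 Taz null library and 11 without Scribble null 2. It was 24 under median-ratio scaling. The median of the list stayed between −0.56 and −0.47 over the 8 fits.

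Replication-dependent histone genes, whose mRNAs have no poly(A) tail and are made in S phase, showed larger differences. Of 65 tested, 11 were lower (against 0.817% of all genes) and 1 was higher. Among the lower ones, Hist1h2al and Hist1h4b passed the filter through the wild-type libraries alone. The median was −0.98, and 56 were negative (against 5607 of all 14929 genes). Hist1h1b, a linker histone, had 20.3 and 37.2 TPM in the Scribble null libraries, against 95.9 and 83.4 TPM in the wild-type ones (log2 difference −1.67, standard error 0.26, adjusted p = 0.0279). Hist1h1a, another linker histone, had 7.78 and 23.5 TPM in the Scribble null libraries, against 69.9 and 68.2 TPM in the wild-type ones (log2 difference −2.26, standard error 0.42, adjusted p = 0.0457). The H4 gene Hist1h4c had 23.2 and 31.6 TPM in the Scribble null libraries, against 81.3 and 60.5 TPM in the wild-type ones (log2 difference −1.34, standard error 0.25, adjusted p = 0.0421), and Hist1h2bc, an H2B gene, had 60.0 and 67.4 TPM in the Scribble null libraries, against 200.4 and 155 TPM in the wild-type ones (log2 difference −1.46, standard error 0.19, adjusted p = 0.0124). The most abundant member called, Hist1h2bl, had 592 and 748 TPM in the Scribble null libraries, against 1396 and 1245 TPM in the wild-type ones (log2 difference −0.99, standard error 0.14, adjusted p = 0.0189), and shares its sequence closely with other H2B genes. The member called higher, Hist1h2bq, had 5.67 and 4.33 TPM in the Scribble null libraries, against 1.09 and 0.961 TPM in the wild-type ones, with a near-identical copy of its own. Lower histone calls numbered 1 without wild type 1 or Scribble null 1, 5 to 7 without wild type 2, a Yap1 Taz null or a triple null library, and 18 without Scribble null 2.

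Genes for energy production separated by the genome that encodes them. Oxidative phosphorylation complexes are built from nuclear and mitochondrial gene products. Of the 77 nuclear genes, 68 were negative (against 5607 of all 14929 genes), with a median of −0.38, and 1 was called lower. Atp5g1, a subunit of the proton-conducting ring of ATP synthase, had 134 and 139 TPM in the Scribble null libraries, against 281 and 268 TPM in the wild-type ones (log2 difference −1.0, standard error 0.13, adjusted p = 0.0134). Of the 13 mitochondrially encoded genes, 12 were positive (against 9322 of all 14929 genes), with a median of 0.45. In this list 2 were called higher and 1 lower (against 0.723% and 0.817% of all genes). mt-Co2, a catalytic subunit of cytochrome oxidase, had 6836 and 7081 TPM in the Scribble null libraries, against 4929 and 4597 TPM in the wild-type ones (log2 difference 0.55, standard error 0.10, adjusted p = 0.0382). mt-Atp6, a subunit of ATP synthase, had 3383 and 3470.4 TPM in the Scribble null libraries, against 2325 and 1868 TPM in the wild-type ones (log2 difference 0.72, standard error 0.13, adjusted p = 0.0382). mt-Nd3, a short subunit of complex I, went the other way, with 11.9 and 36.4 TPM in the Scribble null libraries, against 261 and 257 TPM in the wild-type ones (log2 difference −3.57, standard error 0.47, adjusted p = 0.0123), and stood at 22 and 16.9 TPM in Yap1 Taz null and 26.0 and 14.3 TPM in triple null libraries. All 3 have a near-identical nuclear copy, so their values are uncertain. Median-ratio scaling left none of the 13 called higher and quantile normalization 5, with a positive median under both, and none was called higher in any of the 8 fits that leave out a library. mt-Nd3 was not called without wild type 1 or wild type 2.

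Short housekeeping genes lay on the lower side too. The 81 cytosolic ribosomal protein genes had a median of −0.24, with 67 negative (against 5607 of 14929 genes), 1 called higher and none lower. The exception, Rpl30, had 3934 and 3594 TPM in the Scribble null libraries, against 2497 and 2422 TPM in the wild-type ones (log2 difference 0.61, standard error 0.11, adjusted p = 0.0383). Mitochondrial ribosomal proteins had a median of −0.28 over 78 genes with Mrpl14 called lower, at 22.2 and 27.9 TPM in the Scribble null libraries, against 69.1 and 53.2 TPM in the wild-type ones (log2 difference −1.25, standard error 0.22, adjusted p = 0.0383). Proteasome subunits had a median of −0.30 over 39 genes with the immunoproteasome subunit Psmb10, given above, called lower. Ppia, the abundant prolyl isomerase cyclophilin A, had 1439 and 1617 TPM in the Scribble null libraries, against 2253 and 2258 TPM in the wild-type ones (log2 difference −0.56, standard error 0.10, adjusted p = 0.0421). Splicing proteins had a median of 0.01 over 64 genes and none was called. Leaving out Scribble null 2 turned the count for cytosolic ribosomal proteins to 2 higher and 8 lower, and median-ratio scaling to 0 and 6.

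Transcript length moved with these differences. When named protein-coding genes were split into 4 groups of about equal size by their longest transcript, the shortest group spanned 204 to 2224 bases. Its median log2 difference was −0.03, with 19 called higher and 39 lower. In the next groups, 2225 to 3388, 3389 to 4789 and 4790 to 123179 bases, it was 0.12, 0.18 and 0.24. Calls in the longest group were 18 higher and 4 lower. Median lengths were 555 bases for the histones, 1054 for cytosolic ribosomal proteins and 1135 for nuclear oxidative phosphorylation genes, but 784 for the mitochondrially encoded genes, whose median difference was positive, and 3494 for cell cycle genes, whose median difference was negative. The part of length in the differences was not tested.

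**Figure D4:**
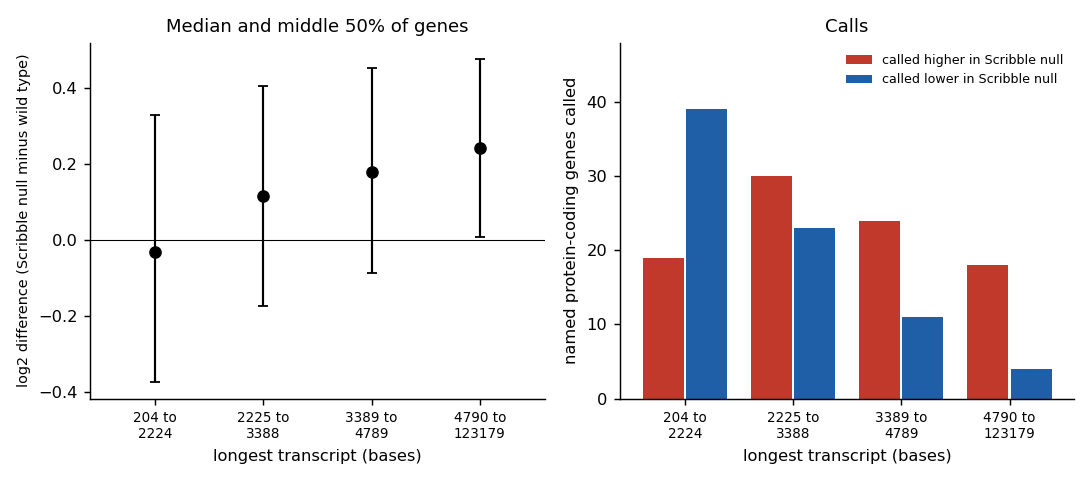
Left, log2 difference (Scribble null minus wild type) of named protein-coding genes in 4 groups of longest transcript length, as median and middle 50% of genes. Right, genes called higher and lower in each group, 19 and 39 in the shortest against 18 and 4 in the longest.

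Immediate early genes are switched on within minutes of a stimulus or of handling of the cells, and called members were higher. Of 48 tested, 4 were higher (against 0.723% of all genes) and none lower, and the median was 0.23. Log2 differences were positive for 35, against 9322 of all 14929 genes. Egr1, a zinc-finger factor that also holds stem cells in quiescence and in the niche, had 1074 and 1146 TPM in the Scribble null libraries, against 504.7 and 515 TPM in the wild-type ones (log2 difference 1.12, standard error 0.11, adjusted p = 0.00241). Egr1 was also above wild type at 871 and 1009 TPM in Yap1 Taz null and 753 and 747 TPM in triple null libraries. Fosb, a partner of Jun proteins in AP-1, had 591 and 645 TPM in the Scribble null libraries, against 327 and 315 TPM in the wild-type ones (log2 difference 0.94, standard error 0.12, adjusted p = 0.0101). Klf6, a Kruppel-like factor, had 158 and 164 TPM in the Scribble null libraries, against 97.5 and 96.3 TPM in the wild-type ones (log2 difference 0.72, standard error 0.12, adjusted p = 0.0317), and Per1, a clock repressor that is also induced early, had 109.7 and 136 TPM in the Scribble null libraries, against 66.5 and 66.2 TPM in the wild-type ones (log2 difference 0.87, standard error 0.15, adjusted p = 0.0383). Other members were high in all 4 libraries and did not pass, such as Fos, with 455 and 606 TPM in the Scribble null libraries, against 427 and 422 TPM in the wild-type ones, and Jun, with 597 and 653 TPM in the Scribble null libraries, against 452 and 414 TPM in the wild-type ones (adjusted p = 0.284 and 0.0706). Of the 4 calls, 2 were left under median-ratio scaling, 1 without wild type 1 or wild type 2, and 2 or 3 without any other library, while quantile normalization gave 7.

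The start-proximal bases of the called members with a window are shown for the letters of the factors they belong with. Per1 has 2 windows in the table, and the first is shown, which lies downstream of the start of the gene in GENCODE M21 (69095217). Capitals mark the CCAAT box and EGR letters (GCGTGGGCG or GCGGGGGCG, in 5.43% of all windows and 4.23% of those of genes called higher).
Fosb, chr7:19310046-19310185, minus strand: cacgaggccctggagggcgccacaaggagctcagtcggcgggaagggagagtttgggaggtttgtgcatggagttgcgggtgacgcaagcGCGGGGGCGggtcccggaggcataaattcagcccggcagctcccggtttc
Klf6, chr13:5861349-5861488, plus strand: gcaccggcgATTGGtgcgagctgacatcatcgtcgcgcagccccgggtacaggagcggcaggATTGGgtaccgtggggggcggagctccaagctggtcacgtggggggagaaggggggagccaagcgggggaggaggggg
Per1, chr11:69098809-69098948, plus strand: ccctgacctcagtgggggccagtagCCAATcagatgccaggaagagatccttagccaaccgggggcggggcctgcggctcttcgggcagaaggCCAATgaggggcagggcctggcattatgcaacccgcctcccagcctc
Fosb held EGR letters 50 to 42 bases before its start, and Klf6 and Per1 held CCAAT boxes and no EGR letters in the stretch shown. AP-1 letters (TGANTCA) stood in 5.63% of windows of genes called higher, against 4.37% of all. Cyclic AMP response element letters stood in 4.23%, against 2.71% of all. CArG box letters (CC, a run of A or T, GG) stood in 0 of the 71 windows of genes called higher, against 1.14% of all. A set of 71 windows is too small to tell 0 from that share, and no window is shown for Egr1.

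The clock genes were also among the higher ones, with 3 of 18 called (against 0.723% of all genes), a median of 0.54 and none lower. Besides Per1, given above, Bhlhe40, a repressor of clock genes, had 172 and 152 TPM in the Scribble null libraries, against 79.0 and 102 TPM in the wild-type ones (log2 difference 0.84, standard error 0.16, adjusted p = 0.0468). No clock gene was called in 7 of the 8 fits that leave out a library, and 1 was called without Scribble null 2. Median-ratio scaling left 1.

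Skil and Hsph1 were the named protein-coding genes called higher under all 21 alternative settings. Skil (SnoN), a repressor that binds SMAD proteins and is itself a target of TGF-beta, had 142 and 151 TPM in the Scribble null libraries, against 50.1 and 52.5 TPM in the wild-type ones (log2 difference 1.49, standard error 0.12, adjusted p = 0.00103), with replicates close together. Smad7, the inhibitory SMAD, had 85.3 and 71.9 TPM in the Scribble null libraries, against 21.8 and 36.7 TPM in the wild-type ones and did not pass (adjusted p = 0.0546). The ligand gene Tgfb1 fell, with 59.5 and 62.6 TPM in the Scribble null libraries, against 105 and 97.7 TPM in the wild-type ones (log2 difference −0.72, standard error 0.13, adjusted p = 0.0414). Of 33 TGF-beta and BMP genes, those were the calls, and the median was 0.40. Skil was at 141 and 139.6 TPM in Yap1 Taz null libraries and at 58.6 and 57.6 TPM in triple null libraries. Hsph1, a cochaperone of HSP70, had 557 and 565 TPM in the Scribble null libraries, against 244 and 247 TPM in the wild-type ones (log2 difference 1.19, standard error 0.11, adjusted p = 0.00151), and was the only call among 18 heat shock genes, whose median was 0.22. Its partner Hspa8 had 1939.8 and 1683 TPM in the Scribble null libraries, against 2315 and 2477 TPM in the wild-type ones, and the chaperone Hsp90aa1 had 1704 and 1513 TPM in the Scribble null libraries, against 1209 and 1215 TPM in the wild-type ones, neither of which passed (adjusted p = 0.111 and 0.122). Hes1, a Notch target, had 637 and 562 TPM in the Scribble null libraries, against 358 and 396 TPM in the wild-type ones (log2 difference 0.67, standard error 0.12, adjusted p = 0.0414), and was the only call among 16 Notch genes. Tsc22d3 (GILZ), a glucocorticoid- and FOXO-induced gene, had 85.0 and 93.0 TPM in the Scribble null libraries, against 37.2 and 29.3 TPM in the wild-type ones (log2 difference 1.40, standard error 0.17, adjusted p = 0.00942).

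Genes that define stem cells were present in every library and mostly did not pass. Of 67 stem cell genes tested, 1 was higher (Tsc22d3) and 1 lower, and the median was 0.26. Both Scribble null values lay above both wild-type values in 35 (against 33.7% of all genes). The stem cell factor receptor Kit had 384 and 401 TPM in the Scribble null libraries, against 268 and 281 TPM in the wild-type ones (adjusted p = 0.117). Slamf1 (CD150), which marks stem cells, had 57.7 and 60.5 TPM in the Scribble null libraries, against 70.9 and 55.9 TPM in the wild-type ones, and Cd48, which stem cells lack, had 1.61 and 3.30 TPM in the Scribble null libraries, against 2.31 and 2.90 TPM in the wild-type ones. Among transcription factors, Mecom had 235 and 235 TPM in the Scribble null libraries, against 159 and 168 TPM in the wild-type ones and Hlf had 290.2 and 382 TPM in the Scribble null libraries, against 257 and 218 TPM in the wild-type ones, neither of which passed (adjusted p = 0.0612 and 0.16). Ly6a (Sca-1), a surface protein raised by interferon, had 148 and 231 TPM in the Scribble null libraries, against 359 and 417 TPM in the wild-type ones (adjusted p = 0.0542).

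Adhesion and homing receptors held 4 higher and 1 lower call of 45 tested (against 0.723% and 0.817% of all genes), with a median of 0.20. Itgb3, the beta subunit of the platelet fibrinogen receptor and of the vitronectin receptor, had 63.3 and 68.5 TPM in the Scribble null libraries, against 18.6 and 28.5 TPM in the wild-type ones (log2 difference 1.48, standard error 0.21, adjusted p = 0.0197). Itgam, the alpha subunit of the myeloid integrin Mac-1, had 12.3 and 7.83 TPM in the Scribble null libraries, against 2.00 and 0.922 TPM in the wild-type ones (log2 difference 2.18, standard error 0.39, adjusted p = 0.0399). S1pr1, a receptor that draws cells out of tissues into blood, had 21.1 and 21.2 TPM in the Scribble null libraries, against 5.34 and 7.34 TPM in the wild-type ones (log2 difference 1.61, standard error 0.27, adjusted p = 0.0326). Cxcr4, which holds stem cells in the marrow, had 18.1 and 25.3 TPM in the Scribble null libraries, against 32.3 and 23.6 TPM in the wild-type ones and overlapped between groups. These calls were lost with most single libraries: 2 higher ones were left without a Yap1 Taz null library, 1 without wild type 2 and none without any of the other 5.

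Partners of Scribble itself gave few calls. Of 41 polarity genes tested 1 was higher, with a median of 0.17 that is close to that of all genes. It was Fzd6, a receptor of planar cell polarity, with 18.3 and 13.6 TPM in the Scribble null libraries, against 3.45 and 4.70 TPM in the wild-type ones (log2 difference 1.74, standard error 0.27, adjusted p = 0.0279). None of the 16 genes of the Scribble, Dlg and Lgl module was called, and their median was 0.43. Dlg1 had 79.9 and 72.4 TPM in the Scribble null libraries, against 49.2 and 58.0 TPM in the wild-type ones, and the Scribble paralogue Lrrc1 had 31.2 and 37.5 TPM in the Scribble null libraries, against 20.7 and 21.2 TPM in the wild-type ones, both above wild type in both libraries without passing (adjusted p = 0.156 and 0.122). Llgl1 had 5.17 and 8.18 TPM in the Scribble null libraries, against 7.78 and 8.09 TPM in the wild-type ones. In the Par complex, Pard3b had 23.7 and 18.5 TPM in the Scribble null libraries, against 8.07 and 12.5 TPM in the wild-type ones, and Pard6a had 8.22 and 5.68 TPM in the Scribble null libraries, against 37.5 and 15 TPM in the wild-type ones (adjusted p = 0.102 and 0.122).

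None of 36 Hippo genes was called, with a median of 0.34. Nearest to the threshold was Map4k4, an upstream kinase of the cascade, with 114 and 119 TPM in the Scribble null libraries, against 57.7 and 70.4 TPM in the wild-type ones (log2 difference 0.86, standard error 0.17, adjusted p = 0.0542). Birc5 (survivin), a YAP target that is also a mitosis gene, had 17.4 and 32.3 TPM in the Scribble null libraries, against 69.9 and 59.0 TPM in the wild-type ones, and Ptpn14, a YAP-binding phosphatase, had 12.0 and 14.7 TPM in the Scribble null libraries, against 6.03 and 6.62 TPM in the wild-type ones (adjusted p = 0.0893 and 0.105). The 12 YAP and TAZ targets tested had a median of 0.57 and the 9 effectors one of 0.66.

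**Figure D5:**
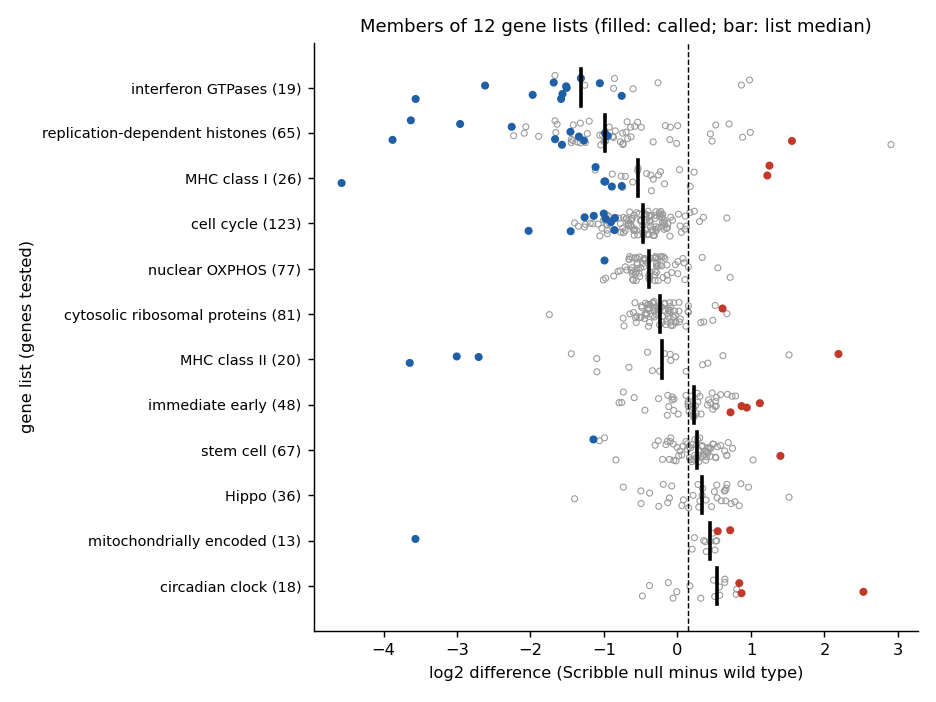
Log2 difference (Scribble null minus wild type) of each tested member of 12 gene lists, 1 point per gene, filled where called, with the list median as a bar. The dashed line is the median of all 14929 genes, 0.14. Interferon GTPases, histones and cell cycle genes lie mostly left of 0 and mitochondrially encoded genes mostly right of it.

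Platelet and myeloid genes moved both ways. Pf4 (platelet factor 4, a chemokine of megakaryocytes that platelet-biased stem cells also express) had 94.9 and 98.9 TPM in the Scribble null libraries, against 816 and 958 TPM in the wild-type ones (log2 difference −3.18, standard error 0.21, adjusted p = 0.000285), and was at 222 and 211 TPM in Yap1 Taz null and 135 and 222 TPM in triple null libraries. The bases before its start follow, with CCAAT boxes in capitals.
Pf4, chr5:90772295-90772434, plus strand: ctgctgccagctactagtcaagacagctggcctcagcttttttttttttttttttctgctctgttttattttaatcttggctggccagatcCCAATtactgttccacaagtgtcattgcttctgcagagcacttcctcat
Of 19 megakaryocyte and platelet genes tested, Pf4 was lower and Itgb3 higher, and the median was −0.26. Other members were not called, such as Itga2b, the alpha subunit of the platelet fibrinogen receptor, with 125 and 133 TPM in the Scribble null libraries, against 127 and 134 TPM in the wild-type ones. Granule and receptor genes of granulocytes were higher for Prtn3 (proteinase 3), with 425 and 262 TPM in the Scribble null libraries, against 118 and 141 TPM in the wild-type ones (log2 difference 1.37, standard error 0.22, adjusted p = 0.0289), and for Csf3r, the G-CSF receptor, with 117 and 115 TPM in the Scribble null libraries, against 52.9 and 56.7 TPM in the wild-type ones (log2 difference 1.07, standard error 0.18, adjusted p = 0.0332). The defining granule genes were near 0, with Elane at 1.02 and 0.941 TPM in Scribble null and 0 and 0 TPM in wild-type libraries, and Mpo at 0.898 and 2.56 TPM in Scribble null and 0.503 and 0.909 TPM in wild-type libraries. Ctse, an aspartic protease of the cathepsins found in antigen-presenting and erythroid cells, had 35.6 and 34.2 TPM in the Scribble null libraries, against 150.0 and 172 TPM in the wild-type ones (log2 difference −2.17, standard error 0.24, adjusted p = 0.00542). Ctse was also below wild type at 34.8 and 56.5 TPM in Yap1 Taz null and 27.9 and 36.5 TPM in triple null libraries.

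Markers of other cells were checked because class II genes are also a mark of dendritic cells and B cells. Of 20 monocyte, macrophage and dendritic markers, 9 were under 1 TPM in all 4 libraries, none was called, and the summed level was 312 and 272 TPM in Scribble null against 256 and 302 TPM in wild-type libraries. Lyz2 made up most of it, with 238 and 205 TPM in the Scribble null libraries, against 212 and 256 TPM in the wild-type ones. The 23 B cell markers summed to 51.0 and 50.4 TPM in Scribble null and 37.4 and 46.5 TPM in wild-type libraries, with Rag1, Blk and Fcrla at 0 in all 4. Of the 8 monocyte, macrophage and dendritic members tested, both Scribble null values lay below both wild-type values in 2 and above both in 4. Of the 12 B cell members tested, they lay below both in 2 and above both in 5. Over all genes the shares were 16.2% below and 33.7% above. A sum carried by 1 abundant gene cannot show a change in members at low levels. The part of such cells in the lower class II genes was not tested. The 17 granulocyte markers summed to 707 and 555 TPM in Scribble null and 422 and 412 TPM in wild-type libraries, with Ly6g, S100a8 and Fcnb at 0 in all 4. Without the called Prtn3 and Csf3r the other 15 summed to 164 and 177 TPM in Scribble null and 252 and 215 TPM in wild-type libraries, which is lower in Scribble null. The 19 erythroid markers summed to 458 and 465 TPM in Scribble null and 655 and 658 TPM in wild-type libraries, mostly through Car2, with 333 and 314 TPM in the Scribble null libraries, against 450.0 and 449.7 TPM in the wild-type ones, and none was called. The 22 megakaryocyte and platelet markers summed to 1648 and 1799.8 TPM in Scribble null and 2459 and 2617 TPM in wild-type libraries, with Cd226 at 0 in all 4. Pf4 made up most of that gap, and without the called Pf4 and Itgb3 the other 20 summed to 1489.6 and 1632 TPM in Scribble null and 1624 and 1631 TPM in wild-type libraries, where the groups overlapped. Of 26 T and natural killer cell markers, 16 were under 1 TPM in all 4 libraries, and the list summed to 269 and 205 TPM in Scribble null and 226 and 197 TPM in wild-type libraries, with overlapping groups. Of its 9 members tested none was called, and the median was 0.74. Both Scribble null values lay above both wild-type values in 8 of the 9 (against 33.7% of all genes). The part of such cells in the higher Klrb1a, given below, was not tested. The 18 endothelial markers summed to 349 and 338 TPM in Scribble null and 268 and 294 TPM in wild-type libraries, and the 20 stromal markers to 143 and 141 TPM in Scribble null and 127 and 129 TPM in wild-type libraries. None of these 3 lists, and none of the 16 mast cell, basophil and eosinophil markers, had a call.

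Among the largest single rises, Vldlr, a lipoprotein receptor, had 29.9 and 16.8 TPM in the Scribble null libraries, against 2.71 and 3.40 TPM in the wild-type ones (log2 difference 2.54, standard error 0.45, adjusted p = 0.0383), and was the only call among 28 genes of sterol synthesis and uptake. Kcnip3, a calcium-binding regulator of potassium channels and transcription, had 17 and 23.1 TPM in the Scribble null libraries, against 1.46 and 5.16 TPM in the wild-type ones (log2 difference 2.42, standard error 0.41, adjusted p = 0.0342). Klrb1a, a receptor of natural killer cells, had 10.3 and 11.8 TPM in the Scribble null libraries, against 1.38 and 1.63 TPM in the wild-type ones (log2 difference 2.26, standard error 0.38, adjusted p = 0.0342). Serpinh1, a chaperone of collagen, had 6.95 and 4.94 TPM in the Scribble null libraries, against 0.403 and 0.813 TPM in the wild-type ones (log2 difference 2.11, standard error 0.39, adjusted p = 0.0468), and passed the filter through the Scribble null libraries alone. These 4 genes were at low levels in both wild-type libraries. At higher levels, Ncoa4, the receptor that takes ferritin to the lysosome, had 152 and 145 TPM in the Scribble null libraries, against 27.3 and 43.8 TPM in the wild-type ones (log2 difference 2.07, standard error 0.23, adjusted p = 0.00573), while none of the other 12 iron genes tested was called. Ncoa4 was also above wild type at 163 and 171 TPM in Yap1 Taz null and 77.8 and 107 TPM in triple null libraries. Il18rap, a subunit of the interleukin-18 receptor, had 119 and 61.6 TPM in the Scribble null libraries, against 19.3 and 25.7 TPM in the wild-type ones (log2 difference 1.90, standard error 0.33, adjusted p = 0.0379). Tecpr1, which helps autophagosomes fuse with lysosomes, had 74.1 and 72.0 TPM in the Scribble null libraries, against 24.3 and 21.3 TPM in the wild-type ones (log2 difference 1.64, standard error 0.19, adjusted p = 0.00588). Ivd, a mitochondrial enzyme of leucine breakdown, had 162 and 168 TPM in the Scribble null libraries, against 65.6 and 71.8 TPM in the wild-type ones (log2 difference 1.26, standard error 0.12, adjusted p = 0.00243). Ivd was also above wild type at 140 and 134 TPM in Yap1 Taz null and 120 and 115 TPM in triple null libraries. Replicates of Tecpr1 and Ivd lay close together in both groups, whereas the Scribble null replicates of Il18rap lay far apart. Clk1, a kinase of splicing factors and among the most abundant genes called, had 1371 and 1440.5 TPM in the Scribble null libraries, against 844 and 948 TPM in the wild-type ones (log2 difference 0.65, standard error 0.12, adjusted p = 0.0414). Chek2, a checkpoint kinase of the DNA damage response, had 455 and 364 TPM in the Scribble null libraries, against 174 and 231 TPM in the wild-type ones (log2 difference 1.02, standard error 0.17, adjusted p = 0.0324), the only call among 71 DNA repair genes.

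High mobility group proteins, which bend or loosen chromatin, were split. Hmga1 had 124 and 121 TPM in the Scribble null libraries, against 59.7 and 50.5 TPM in the wild-type ones (log2 difference 1.14, standard error 0.14, adjusted p = 0.00942), and Hmgn2 had 271 and 257 TPM in the Scribble null libraries, against 442 and 432 TPM in the wild-type ones (log2 difference −0.72, standard error 0.12, adjusted p = 0.0317). Hmga1 was at 128 and 143 TPM in Yap1 Taz null and 141 and 128 TPM in triple null libraries. Hmgn2 was at 373 and 321 TPM in Yap1 Taz null and 316 and 347 TPM in triple null libraries. No other of 102 chromatin genes was called, and the median was 0.15, with Uhrf1, which guides maintenance methylation after replication, at 39.0 and 34.6 TPM in the Scribble null libraries, against 61.3 and 80.4 TPM in the wild-type ones (adjusted p = 0.0789). In inflammation, Tnf had 1.83 and 1.01 TPM in the Scribble null libraries, against 13.3 and 8.57 TPM in the wild-type ones (log2 difference −2.29, standard error 0.38, adjusted p = 0.0317), the only call among 24 NF-kB genes. Lists of p53 targets, Wnt, Bcl2 family, glycolysis, TCA cycle, fatty acid oxidation, unfolded protein response, translation and ribosome biogenesis genes had no call, and their medians ran from −0.14 to 0.16.

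Of 1580 pseudogenes tested 3.1% were called, and of the 12546 named protein-coding genes 1.35%, and 37 of the 122 lower calls were pseudogenes. Of all called genes, 13 higher and 36 lower ones have a near-identical copy (at least 95% identity over at least 80% of the longest transcript), so reads could be assigned to either. Among symbols that were set aside, Gm15459 had 728 and 717 TPM in the Scribble null libraries, against 17.9 and 15.5 TPM in the wild-type ones, Rpl3-ps1 had 2.60 and 2.84 TPM in the Scribble null libraries, against 435 and 424 TPM in the wild-type ones, and H2-Ea-ps had 0.563 and 1.03 TPM in the Scribble null libraries, against 49.5 and 64.3 TPM in the wild-type ones.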

How the data were processed

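Per the file headers, the authors deposited 1 table of TPM per gene symbol for each of the 8 libraries, and each sums to 1000000. A series table of linear expression signal per Ensembl identifier, whose unit the header does not name, was deposited as well and served only as an alternative (27475 of 28987 identifiers matched a symbol). TopHat and mm10 are named in the submitters' processing notes, without a role, and the sources used here do not give the quantifier or its treatment of multi-mapping reads.

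Log2(TPM + 1) values were fitted by limma 3.58.1 (R 4.3.3) with a mean-variance trend and 4 group means over the 8 libraries (4 residual degrees of freedom, 4.05 prior degrees). Genes had to reach 1 TPM in 2 or more of the 4 compared libraries. P-values were adjusted by Benjamini-Hochberg over 14929 genes, and an adjusted p under 0.05 is a call. Symbols were matched to GENCODE M21 (14503 genes, with 5 more through RefSeq and 421 unmatched), and near-identical copies were found with BLAST 2.17.0. For genes with several promoter windows (2036 of 9951), the first in the table was used.

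The genes and lists were chosen with earlier results of these data known. Named genes were Scrib and its module, the 15 largest differences per direction, the 10 most abundant calls and up to 4 members of each list with the smallest p, with genes dropped from the end of a part; some genes that meet this rule are not reported here. Further called list members, genes called in all fits that leave out a library, genes shown for other genotypes and markers such as Slamf1, Cd48, Kit and Lyz2 were named after their values were seen. Alternatives changed the pseudocount, the filter, the scaling, the source table, the variance model, the block and the libraries.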

Additional observations from a re-analysis of the deposited data

How the results depend on the processing

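Genes called higher and lower numbered 108 and 122. The higher count was 48 with no filter on low values, 14 with the 4 compared libraries alone, 69 after median-ratio scaling, 47 from the series table and 42 without a variance trend. The lower count was 49 with the 4 compared libraries alone, 217 after median-ratio scaling, 69 from the series table and 77 without a trend. Leaving out 1 library gave 13 to 102 higher and 40 to 146 lower genes. With pseudocounts of 0.1 and 5, filters of 5 TPM or of 1 TPM in all 4 libraries, quantile normalization, rescaling to protein-coding genes and robust moderation, both counts stayed within 1.5 times, at 94 to 149 higher and 106 to 151 lower. With the replicate number as a block, 42 genes were higher and 83 lower. The titles number the libraries of each genotype as experiments 1 and 2. Same-numbered libraries did not deviate together (correlations of −0.048 to 0.030 between pairs of groups). Such correlations cannot tell whether libraries with the same number were made in a shared experiment. Scrib was not called under any of the 21 alternatives, with log2 differences of −0.47 to −0.17 and adjusted p of 0.495 to 0.876. For the other 108 genes with a printed log2 difference, none of 2254 alternative values had the other sign, and 598 moved out of the calls and 25 into them. Limits are 2 libraries per group, an unknown sequencing depth, TPM that depend on transcript length and composition, and reads of near-identical copies. The causes of the changed counts were not tested.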
